A study of Mus musculus with 4 samples.

Results

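The 46 genes described here are cell cycle genes, 23 of them transcribed mainly around S phase and 23 mainly in G2 and mitosis. They were taken by name, with no limit on their measured values, and all 46 were found among the 21495 genes of the deposited single-cell count table. Their levels were read from unique molecular identifiers (UMIs), each of which stands for 1 captured transcript. The UMIs of a gene were summed over the cells of 1 type in 1 sample and are given per 1000000 UMIs of those cells (CPM).

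A dividing cell copies its DNA in S phase and separates the copies in mitosis, and most genes of both lists are transcribed in the phase that uses them. S phase genes are commonly activated by E2F factors, while late genes are held down by the DREAM complex and later activated by B-MYB and FOXM1, often through a promoter element called CHR. The S phase list holds the replicative helicase and its partners (Mcm2, Mcm3, Mcm4, Mcm5, Mcm6, Cdc45, Gins2), the origin licensing factor Cdc6, the clamp and its loader (Pcna, Rfc2), nucleotide and repair enzymes (Tyms, Rrm1, Rrm2, Ung), chromatin factors (Chaf1b, Uhrf1, Hells, Cdca7), Clspn, Dtl, Slbp and the E-type cyclins (Ccne1, Ccne2). The G2/M list holds the mitotic cyclins and kinases (Ccnb1, Ccnb2, Cdk1, Plk1, Aurka, Aurkb, Bub1), centromere and kinetochore genes (Cenpa, Cenpe, Cenpf, Ndc80), spindle and division genes (Kif11, Kif23, Tpx2, Nusap1, Hmmr, Tacc3, Anln), Birc5, the anaphase ubiquitin genes Cdc20 and Ube2c, Top2a and Mki67. In the embryonic gonad the coelomic epithelium is a dividing sheet that gives rise to supporting cell precursors, which leave the cell cycle for a time around sex determination, while germ cells of this age go on dividing.

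The samples were 4 pools of embryonic mouse gonads with the attached mesonephros, each from 3 to 4 pairs of gonads, fixed in methanol, with RNA captured from its 3′ end in droplets (10x Genomics). The study asked what loss of the miR-17-92 cluster, a group of microRNAs made from a single transcript, does to gonads at sex determination. XY KO embryos at E11.5 and E11.75 carried a homozygous deletion of the cluster made by CRISPR in G4 embryonic stem cells, and were derived from these cells by tetraploid complementation. These samples are called the E11.5 KO and the E11.75 KO. XY control embryos at E11.5 came by the same route from unedited G4 cells. XX control embryos at E11.5 came from a cross of C57BL/6J males with 129 females instead. The strain label of all samples was C57BL/6 x 129S4/SvJae. Embryos made from a single stem cell line are a narrow sample of genotypes. The KO stages follow the sample labels and the deposited cell names, while the study's methods text lists the cell numbers of both KO stages in the opposite order. The same text has no second technical replicate for the later KO stage, and the names of the cells labelled with that stage mark no second replicate either. Each group was 1 pooled sample, so no test between groups was possible, and all intervals given are 95% intervals that cover the counting of UMIs or, for shares, the sampling of cells, and not the spread between embryos.

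The table held 52745 cells and 301219830 UMIs, between 3669 and 23527 cells a sample. The median cell held 3893 UMIs in the XY control, 4763 in the E11.5 KO, 3922 in the E11.75 KO and 15509 in the XX control. In the XX control 450 cells held 30000 or more UMIs, a depth above which cells of the XY samples had been removed by the authors, and no XY cell reached it. The technical replicates of a sample, told apart by the cell names, are called runs here. Any pair of runs, of the same sample or not, shared between 0.057% and 0.687% of the cell barcodes of the smaller run. The 13 cell types were those of the deposited annotation, several of them under names given here. Its Bipotential progenitors are called pre-supporting cells and its Supporting cells Sertoli cells. Its Epithelial cells are called coelomic epithelium and its Mesonephros cells mesonephric mesenchyme. Markers of coelomic epithelium, germ cells, interstitial progenitors and mesonephric mesenchyme were highest in the type of that name in all 4 samples, and those of Sertoli cells in both samples with 50 or more such cells. The pre-supporting markers went partly against the name given here, since they were highest in supporting-like cells in all 4 samples with pre-supporting cells next. The host transcript of the cluster, Mir17hg, was at 9.39 CPM in pre-supporting cells of the XY control, 99.0 in the E11.5 KO, 108 in the E11.75 KO and 7.96 in the XX control. It was higher in both KO samples than in both controls, for a cause that was not tested. Where its tags lie was not examined, so this level does not check the loss of the microRNAs. Types with fewer than 50 cells in a sample were left out, which removed Sertoli cells of the E11.5 KO (24 cells) and of the XX control (2 cells) and adrenal and immune cells of the E11.75 KO (8 and 38 cells). Because cells had been clustered by the authors on expression that may include these genes, levels between types are descriptions.

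The supporting and interstitial types stood apart from all other types in the G2/M genes. The 23 G2/M genes together reached between 419 and 777 CPM in pre-supporting, supporting-like, Sertoli and interstitial progenitor cells, and between 1845 and 4801 CPM in the other types. In pre-supporting cells, the precursors of Sertoli and granulosa cells, the summed G2/M level was 589 CPM in the XY control (572 to 606), 555 in the E11.5 KO, 442 in the E11.75 KO and 642 in the XX control. In coelomic epithelium it was 3906, 3633, 3957 and 3802 CPM in the same order, and in germ cells 4466, 4124, 4801 and 3850 CPM. No supporting or interstitial value overlapped any value of another type, and the lowest other type held between 2.37 and 4.06 times the G2/M level of the highest supporting or interstitial type within each sample. A lower level in a summed type can come from fewer cells with the transcripts or from less RNA per cell, and the sums alone cannot tell these apart.

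**Figure D1:**
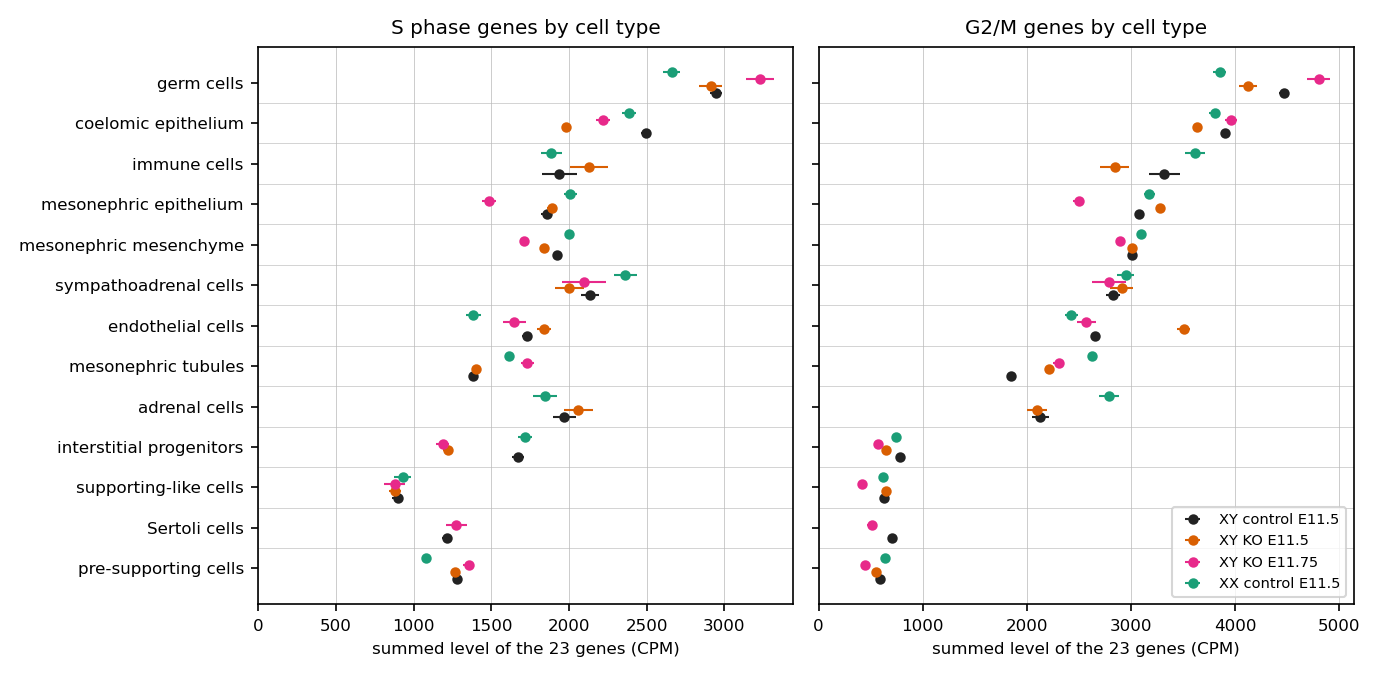
Summed levels of the 23 S phase genes (left) and the 23 G2/M genes (right) in CPM, by annotated cell type and sample, with exact Poisson intervals, for types with at least 50 cells in the sample. The G2/M level of the 4 supporting or interstitial types lies between 419 and 777 CPM in every sample, below all other types, whereas over the 4 samples the S phase levels of the types overlap.

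The S phase genes were spread far less. In pre-supporting cells they summed to 1281 CPM in the XY control (1256 to 1307), 1266 in the E11.5 KO, 1354 in the E11.75 KO and 1083 in the XX control. Coelomic epithelium held 2495, 1981, 2218 and 2388 CPM, and interstitial progenitors 1671, 1220, 1187 and 1718 CPM. In both KO samples all supporting or interstitial types lay below all other types, with the lowest other type at 1.11 and 1.10 times the highest of them, whereas in the XY control and in the XX control interstitial progenitors were above the lowest of the other types. The G2/M to S phase ratio of the sums lay between 0.33 and 0.59 in pre-supporting cells and between 1.57 and 1.83 in coelomic epithelium. Among types with at least 50 cells it was below 0.74 in each supporting or interstitial type and above 1 in each other type.

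Each of the 23 G2/M genes was lower in pre-supporting cells than in coelomic epithelium in each of the 4 samples. Ratios were read on the log2 scale relative to the median gene of the same comparison, and a gene was counted as higher or lower when it lay at least 0.5 from that median, in genes with at least 100 UMIs over both sides. All 23 genes were tested and all 23 were lower, beside 19.6% of all genes tested in the XY control, 15.4% in the E11.5 KO, 15.2% in the E11.75 KO and 19.1% in the XX control. The median G2/M gene lay at −2.68, −2.68, −3.14 and −2.56 in that order of samples.

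Top2a, the topoisomerase that untangles sister chromatids, was at 66.7, 59.2, 68.0 and 73.4 CPM in pre-supporting cells of the XY control, the E11.5 KO, the E11.75 KO and the XX control. Coelomic epithelium held 588, 519, 750 and 603 CPM in the same order. All 4 pre-supporting values lay far below all 4 epithelial values. Mki67, which coats mitotic chromosomes and is a common proliferation marker, was at 27.8, 27.5, 33.1 and 25.7 CPM in pre-supporting cells and at 214, 185, 347 and 189 CPM in coelomic epithelium. Ccnb1, the cyclin that drives entry into mitosis with Cdk1, was at 27.8, 24.9, 12.2 and 36.7 CPM against 170, 141, 135 and 146 CPM. Relative to the median gene these differences lay between −3.44 and −2.96 for Top2a, between −3.37 and −2.68 for Mki67 and between −3.44 and −1.91 for Ccnb1. The least reduced G2/M gene by the median over samples was Ccnb2, another B-type cyclin, at −1.98, and the most reduced was Aurkb, a kinase that corrects spindle attachments, at −3.30.

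The S phase genes were lower to unequal degrees. Of the 23 genes tested, 18 were lower in the XY control, 13 in the E11.5 KO, 15 in the E11.75 KO and 20 in the XX control, beside the same 19.6%, 15.4%, 15.2% and 19.1% of all genes tested. None was higher, beside 18.3%, 13.3%, 14.8% and 20.0%. Their medians lay at −1.04, −0.63, −0.72 and −1.32. At one end stood Clspn, a checkpoint adaptor at replication forks, with a median over samples of −2.41, and Rrm2, the cell cycle regulated subunit of the reductase that makes deoxynucleotides, with −2.33. Rrm2 was at 31.3, 34.7, 29.2 and 28.8 CPM in pre-supporting cells and at 193, 153, 127 and 182 CPM in coelomic epithelium, with no overlap. At the other end stood Ung, which removes uracil from DNA, with a median of −0.05, and Slbp, which binds the stem-loop of histone mRNAs, with −0.15. Ung was at 63.4, 66.5, 70.6 and 54.1 CPM against 70.4, 58.2, 73.1 and 63.3 CPM, and these ranges overlapped. The helicase subunits were reduced to unequal degrees, with medians of −0.26 for Mcm6, −0.33 for Mcm4, −0.47 for Mcm2, −0.48 for Mcm3 and −0.77 for Mcm5. Over the samples Mcm5 lay between −1.03 and −0.63, past the limit in each. The interval lay below the median gene in all 4 samples for all 23 G2/M genes and for 19 S phase genes, in 3 samples for Mcm4, in 2 each for Mcm6 and Slbp and in none for Ung. The share of all genes with such intervals was not computed, so these counts have no background beside them. Differences under the limit of 0.5 can pass in this way, as for Rfc2 with a median of −0.34. Clspn, Ung, Mcm4, Mcm5, Mcm6, Aurkb and Ccnb2 were named here after their values were seen.

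**Figure D2:**
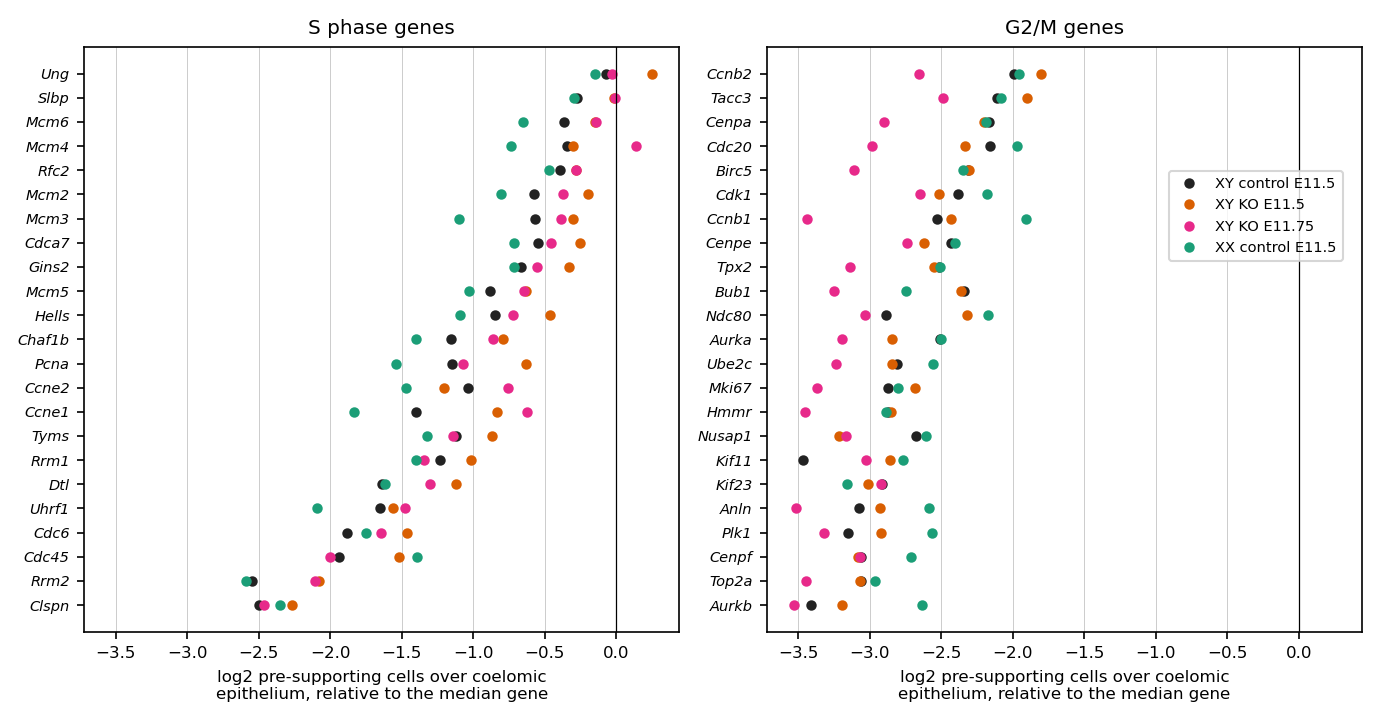
Log2 ratio of each gene in pre-supporting cells over coelomic epithelium, relative to the median gene, in the 4 samples (1 point a sample), for S phase genes (left) and G2/M genes (right), ordered by their median. All G2/M points lie at or below −1.80, while S phase genes run from Ung near 0 to Clspn near −2.4.

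The 2 lists also differed in the letters of their promoters, which are shown because all G2/M genes were lower in pre-supporting cells while the S phase genes were so to unequal degrees. Of the 46 genes, 40 had a promoter in the RefSeq table (GRCm38.p6), a window of 300 bases from 250 before to 50 after a start site, with 1 window for each of 21 G2/M genes and 20 windows for 19 S phase genes. Both strands were searched for CHR, spelled TTTGAA or TTCGAA, for CCAAT, and for an E2F core spelled TTCCCGC in one form, TTGGCGC in another, and also TTCGCGC and the form TTGCCGC. CHR letters were in 76.2% of the G2/M windows (16 of 21), in 10% of the S phase windows (2 of 20) and in 19.2% of all 32851 windows. E2F core letters were in 65% of the S phase windows (13 of 20), in 23.8% of the G2/M windows (5 of 21) and in 9.57% of all windows. CCAAT was in 76.2% of G2/M, 65% of S phase and 37.4% of all windows, and CHR together with CCAAT was in 66.7% of G2/M and 7.52% of all windows.

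The G2/M stretches below are printed 5′ to 3′ on the strand named, with the CHR letters in capitals. In Cdc20, which activates the anaphase ubiquitin ligase, a CCAAT lies right after the CHR letters, and in Ube2c, the ubiquitin-conjugating enzyme of that ligase, both lie in the same window.
Cdk1, chr10:69352912-69352937, minus strand, 12 bases before the start: ccgcggcgagTTTGAAactgctggca
Cdc20, chr4:118437346-118437371, minus strand, 15 bases before the start: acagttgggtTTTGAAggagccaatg
Ube2c, chr2:164769890-164769915, minus strand, 26 bases before the start: gccgcccgcgTTTGAAttgcaaccct
Cenpf, chr1:189688069-189688094, minus strand, 5 bases after the start: cggcgggcagTTTGAAtcgctcgtgc
Plk1, chr7:122159455-122159480, plus strand, 33 bases after the start: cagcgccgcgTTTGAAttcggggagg

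The S phase stretches are printed in the same way, with the E2F core letters in capitals. In Mcm5 and Mcm6 the letters on one strand overlap a second E2F core on the other.
Mcm5, chr8:75109350-75109376, minus strand, 146 bases before the start: gctggacgttTTGGCGCgaaagttctt
Mcm6, chr1:128359732-128359758, plus strand, 40 bases before the start: gctgagctacTTCGCGCcaaacccgtc
Dtl, chr1:191575535-191575561, minus strand, 4 bases before the start: tgacgtcagtTTGGCGCggagtttggc
Rrm1, chr7:102441618-102441644, plus strand, 64 bases before the start: ggagaactcgTTCCCGCcaggtccgct
The lists did not split cleanly by these letters, since Cdc45 and Mcm2 of the S phase list carried CHR letters, and Ccnb1, Cdk1, Hmmr, Mki67 and Tacc3 of the G2/M list carried an E2F core, in Ccnb1 overlapping a CCAAT. A match is a description of the letters, and whether a factor binds there was not measured.

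To compare single cells of unequal depth, 3000 UMIs were drawn at random from every cell, and cells with fewer were left out. Of pre-supporting cells, 30.6% in the XY control (449 of 1468, exact interval 28.2% to 33.01%), 30.3% in the E11.5 KO, 34.8% in the E11.75 KO and 22.6% in the XX control then held at least 5 UMIs of the S phase genes. At least 5 UMIs of the G2/M genes were held by 5.04% (74 of 1468, 3.98% to 6.29%), 5.53%, 2.77% and 8.88%. In coelomic epithelium the G2/M shares were 62.8%, 49.4%, 57.1% and 57.2%, and in germ cells 96.0%, 94.9%, 98.0% and 91.7%. The order of samples in pre-supporting cells depended on the limit, since with 3 UMIs the XX control lay below the XY control. Cells with no G2/M UMI made up 33.5% of pre-supporting cells in the XX control and 22.9% in the XY control. The cells left out of the pre-supporting type numbered 173, 54, 93 and 3 in that order. Without thinning the pre-supporting G2/M shares were 14.9%, 17.7%, 8.23% and 57.96%, highest by far in the deepest sample.

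No annotated type was free of the G2/M genes, so none could show the level that free RNA gives. Supporting-like cells, with a median of 3447 UMIs in the XY control and 13182 in the XX control before thinning, beside 4522 and 17499 in pre-supporting cells, held G2/M shares of 4.45%, 8.68%, 6.38% and 9.30%. These shares were above those of pre-supporting cells in all samples but the XY control. Interstitial progenitors held 8.31%, 7.77%, 3.86% and 9.33%. How much of these low shares is free RNA was not tested, and no order among these types is read from them. The S phase shares of supporting-like cells were 16.2%, 12.1%, 17.0% and 14.0%, below those of pre-supporting cells in each sample. In the XX control the intervals overlapped, at 7.42% to 23.1% (12 of 86 cells) against 18.4% to 27.4% in pre-supporting cells.

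The cells themselves were distributed in unlike ways. In pre-supporting cells the variance of the G2/M count over its mean was 1.68, 2.11, 1.80 and 5.97, and in coelomic epithelium 9.69, 12.5, 12.3 and 9.97. A ratio near 1 is that of counts scattered evenly over cells, and the ratio also grows with the mean count, which was higher in the epithelium. Divided by both lists, 28.7% of pre-supporting cells of the XY control passed only the S phase limit, 1.84% both, 3.20% only the G2/M limit and 66.2% neither, while of the coelomic epithelium 44.2% passed both and 10.7% neither. In the XY control 28.1% of pre-supporting cells lay at the S phase limit or 1 UMI under it, and 8.79% at the G2/M limit or 1 UMI under it. These classes are therefore ranges of a count and not cell types.

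**Figure D3:**
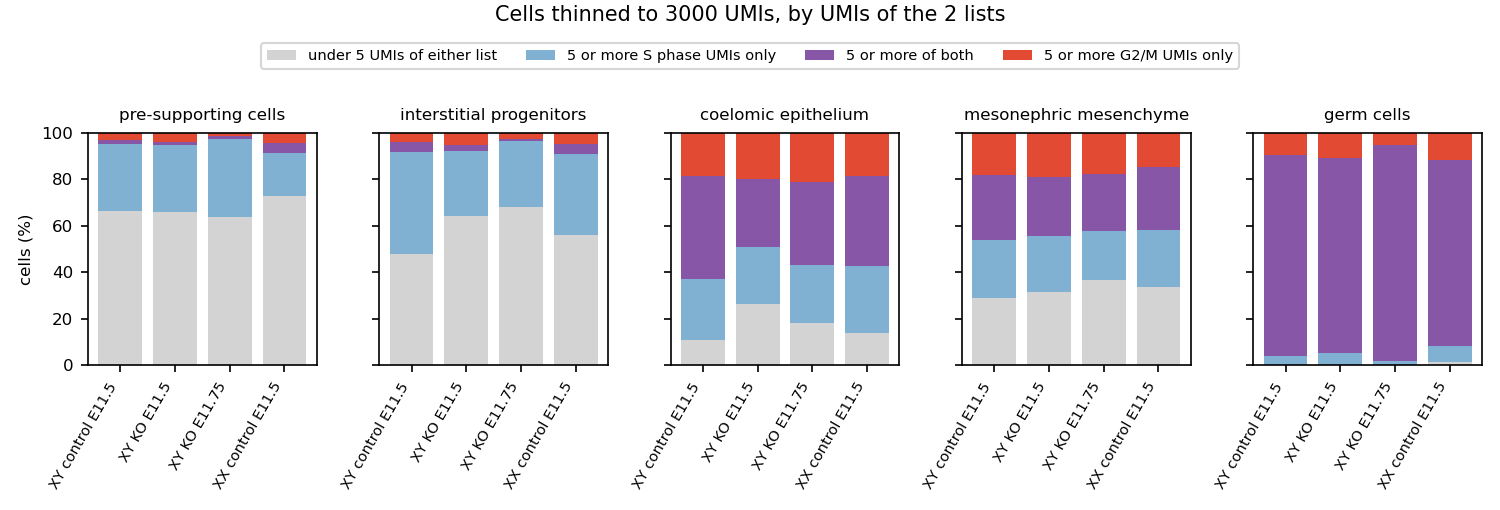
Shares of cells (%) in 5 cell types and 4 samples that held, after thinning to 3000 UMIs, at least 5 UMIs of the S phase genes only, of both lists, of the G2/M genes only, or of neither. Pre-supporting cells and interstitial progenitors are mainly in the neither and S phase only classes, and germ cells mainly in the class with both.

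The genes within each list were not interchangeable, as shown by splitting all cells on the other genes of the lists and reading the gene left out. The classes are cells at or over the limit of 5 UMIs for 1 list, for both or for neither, so that cells of each class can hold UMIs of both lists, and all cell types were pooled, whose mix differs between the classes. From cells over the S phase limit only to cells over the G2/M limit only, all 23 G2/M genes were higher in all 4 samples, by between 1.67 and 4.45 on the log2 scale of CPM with 1 added. The classes were picked by the other genes of the same lists, which favours this direction. The share of all genes that were higher was not computed, so this count has no background beside it. Cenpf, a kinetochore protein that accumulates in G2, differed most by the median over samples (3.80), from 47.4 to 547 CPM in the XY control, followed by Ccnb1 (3.71), from 25.2 to 291 CPM. Cdk1, Top2a and Ndc80 differed least (1.995, 2.18 and 2.34), and Top2a was already at 165 CPM in cells over the S phase limit only beside 66.2 CPM in cells with neither. In the S phase list the opposite end was held by Ung, Cdc6 and Ccne2 (−2.30, −2.26 and −2.02). Ccne2, an E-type cyclin that acts at S phase entry, was at 30.3 CPM in cells over the S phase limit only and at 5.19 CPM in cells over the G2/M limit only in the XY control, close to its 6.49 CPM in cells with neither. Rrm1, the large reductase subunit, was the single S phase gene above 0 in all 4 samples, with a median of 0.26. Within mesonephric mesenchyme alone it had a median of 0.15 and lay at −0.05 in the E11.75 KO, Ung had a median of −3.03, and the G2/M genes at either end of the order were Cdk1 (1.9955) and Cenpf (3.83). Ung, Cdc6, Cdk1, Rrm1 and Ndc80 are named by their place in this order.

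How far a gene was lower in pre-supporting cells than in coelomic epithelium followed how strongly its level depended on these classes. The dependence was measured in another type, mesonephric mesenchyme, as the level in cells with both lists over that in cells with neither. Across the 23 S phase genes its Spearman correlation with the pre-supporting to epithelium ratio was −0.91, −0.93, −0.91 and −0.81 in the 4 samples, and across the 23 G2/M genes −0.80, −0.72, −0.71 and −0.75. Both measures of a sample come from the same library, and genes are not independent replicates, so this is a description. Within pre-supporting cells 23, 21, 23 and 19 of the 23 S phase genes were higher in cells over the S phase limit only than in cells with neither. Of the G2/M genes 17, 12, 11 and 10 of 23 were higher there, as were 52.3%, 49.8%, 50.1% and 48.2% of the genes outside the lists with at least 10 UMIs in those cells. Both classes lie under the limit for the other G2/M genes, which restricts how far a G2/M gene can differ between them. The median difference of the S phase genes was 0.72, 0.55, 0.58 and 0.50 in pre-supporting cells of the 4 samples, against 1.09, 1.25, 1.60 and 1.36 in mesonephric mesenchyme. For the G2/M genes it was 0.34, 0.18, −0.05 and −0.03 in pre-supporting cells, against 0.28, 0.14, 0.17 and 0.52 in mesonephric mesenchyme. In pre-supporting cells of the XY control the difference of the S phase genes ran from 0.29 for Rrm1 to 1.06 for Cdc45, a helicase cofactor.

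Interstitial progenitors also held low levels of the G2/M genes. Their S phase level was above that of pre-supporting cells in both controls, and below it in both KO samples, at 1220 against 1266 CPM and 1187 against 1354 CPM. Compared with mesonephric mesenchyme, all 23 G2/M genes were lower in each sample, with medians of −1.98 in the XY control, −2.18 in the E11.5 KO, −2.26 in the E11.75 KO and −2.27 in the XX control, beside 12.2%, 14.2%, 12.3% and 10.9% of all genes tested. The S phase medians were −0.17, −0.48, −0.53 and −0.10. Mki67 was at 46.1, 31.8, 44.6 and 30.1 CPM in interstitial progenitors, above the pre-supporting value in each sample.

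Sertoli cells, the testis supporting cells that arise from pre-supporting cells, were numerous enough in the XY control (752 cells) and the E11.75 KO (168 cells). In the XY control the G2/M genes summed to 708 CPM there and to 589 CPM in pre-supporting cells, a relative log2 difference of 0.28 (0.21 to 0.35). Of 22 genes tested, 6 were higher and 1 lower, beside 13.1% and 10.7% of all genes tested. Cdk1 was at 78.0 CPM in Sertoli and 41.5 CPM in pre-supporting cells and was the highest of the genes tested (0.92), and Ccnb2 the lowest (−0.63). Ndc80, under the minimum of 100 UMIs, was not counted. In the E11.75 KO only 9 G2/M genes could be tested, of which 2 were higher and none was lower, beside 9.81% of genes tested higher, with a difference of the sums of 0.18 (0.03 to 0.32). The S phase sums lay on the other side, at 1215 against 1281 CPM in the XY control (−0.06, −0.11 to −0.01) and 1274 against 1354 CPM in the E11.75 KO (−0.12, −0.20 to −0.03). In the XY control 3 of 23 S phase genes, Rrm1 (0.76), Cdc45 and Clspn, were higher and none lower. Beside these stood 13.1% of all genes tested higher and 10.7% lower, so the count of higher genes was near the background. In the E11.75 KO 3 of 19, Uhrf1 (−0.69), Mcm4 and Cdca7, were lower and none higher, beside 9.00% and 9.81% of genes tested. These 6 genes are named as all those past the limit.

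Germ cells held the highest summed level of both lists in each sample. In the XX control their G2/M level, 3850 CPM, was close to the 3802 CPM of coelomic epithelium. Relative to that epithelium, 12, 14, 14 and 9 of 23 S phase genes and 9, 9, 12 and 9 of 23 G2/M genes were higher in the XY control, the E11.5 KO, the E11.75 KO and the XX control, beside 32.4%, 30.4%, 31.5% and 29.6% of all genes tested. Lower were 2, 2, 3 and 4 S phase genes and 0, 0, 0 and 1 G2/M genes, beside 34.9%, 34.9%, 33.9% and 32.4%. Uhrf1, which brings the maintenance DNA methyltransferase to newly copied DNA, was the lowest in each sample. It was at 11.3, 11.73, 19.9 and 7.48 CPM in germ cells and at 137, 93.2, 154 and 108 CPM in coelomic epithelium, a relative difference between −3.52 and −2.70. Gins2, a helicase partner named after its values were seen, was next, at 15.2, 16.1, 14.1 and 20.8 CPM against 89.8, 75.0, 64.4 and 97.3 CPM. Ung stood at the other end, at 295, 263, 293 and 229 CPM in germ cells, between 2.15 and 2.44 above the epithelium. Of the G2/M genes Ccnb1 had the highest ratio to the epithelium in each sample, between 1.34 and 1.56, with levels of 381, 306, 346 and 300 CPM in germ cells.

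The deletion at E11.5 was read by setting the E11.5 KO beside the XY control. In pre-supporting cells neither list moved past the limit. Of 23 S phase genes none was higher or lower, and of 22 G2/M genes tested none, beside 5.90% of all genes tested higher and 7.54% lower. Ndc80 was under the minimum with 79 UMIs. The relative difference of the sums was 0.08 (0.03 to 0.12) for S phase and 0.01 (−0.06 to 0.07) for G2/M, where the median gene itself lay at −0.09. Runs, which are technical replicates of the same pool, differed by 0.03 to 0.09 on the log2 scale in these sums, so that a difference of this size was within the spread between runs. The highest S phase gene was Cdca7, a chromatin protein expressed in S phase, at 84.6 CPM against 70.0 CPM in the control (0.37, 0.19 to 0.54), and the lowest was Ccne2, at 7.63 against 11.035 CPM (−0.43, −0.99 to 0.09). Among G2/M genes Kif11, a motor that separates spindle poles, was highest (0.41, −0.11 to 0.94) and Cenpe, a motor that carries chromosomes to the spindle equator, lowest (−0.31). Pcna, the sliding clamp of DNA polymerases, was at 35.3 against 33.9 CPM (0.15), and Ccne1, the other E-type cyclin, at 16.6 against 18.01 CPM (−0.02). The XY control held 752 Sertoli cells and the E11.5 KO only 24. With Sertoli cells added to the pre-supporting cells of both, the G2/M difference was −0.08, and of 23 G2/M genes tested 1 was higher and 1 lower, beside 7.32% of all genes tested in those cells higher and 10.8% lower.

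Other types of the E11.5 KO moved in their own directions. In interstitial progenitors the S phase genes were lower, at 1220 against 1671 CPM (−0.32, −0.37 to −0.27), with all 21 genes tested below the median gene and 3 past the limit, beside 4.75% of genes lower. In coelomic epithelium they were lower by 0.23 on the same scale (−0.25 to −0.20), with 22 of 23 genes below the median and 1 past the limit, beside 3.91%. The G2/M genes there summed to 3633 against 3906 CPM. After thinning, 49.4% of these epithelial cells against 62.8% held at least 5 G2/M UMIs, and 53.5% against 70.7% at least 5 S phase UMIs. In endothelial cells the G2/M genes were higher, at 3505 against 2655 CPM (0.44, 0.40 to 0.47), with all 23 above the median gene and 5 past the limit, beside 3.13% higher. Endothelial runs differed by 0.22 in the E11.5 KO and 0.29 in the XY control, with 3241 CPM in the lowest KO run and 2904 CPM in the highest control run, which covers technical spread only. In mesonephric tubules the G2/M genes were at 2213 against 1845 CPM (0.35, 0.31 to 0.38), with 2 past the limit, beside 4.44% higher.

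**Figure D4:**
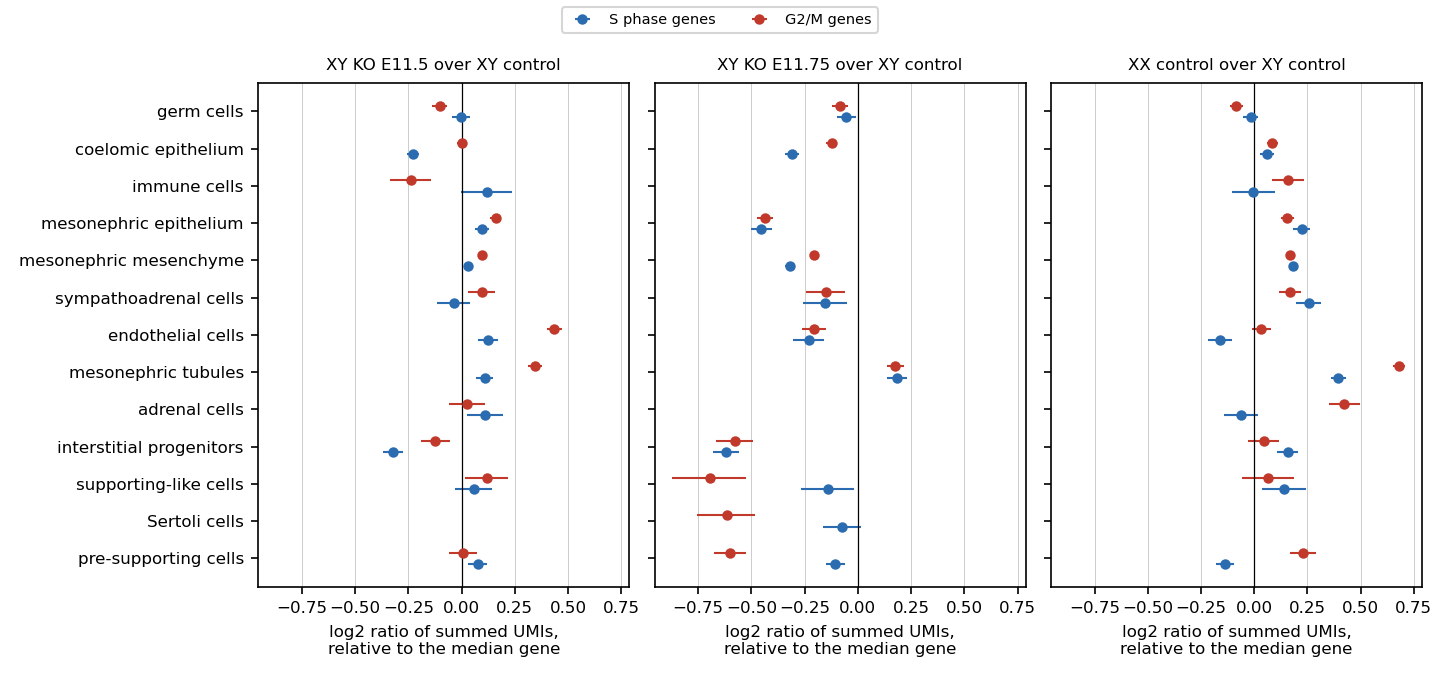
Log2 ratio of the summed S phase genes (blue) and G2/M genes (red) relative to the median gene, by cell type, for each of 3 samples over the XY control, with 95% counting intervals and types of at least 50 cells in both samples. In pre-supporting cells both lists lie near 0 in the E11.5 KO, whereas the G2/M genes lie at −0.60 in the E11.75 KO and at 0.23 in the XX control.

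At E11.75 the KO had no control of its own stage, so the deletion and the difference in stage cannot be told apart. This KO sample was also a single run. All comparisons with the XY control also share that sample. In pre-supporting cells the G2/M genes summed to 442 CPM (423 to 462) against 589 CPM in the XY control and 555 CPM in the E11.5 KO. Relative to the median gene, which lay at 0.19, the difference from the control was −0.60 (−0.68 to −0.52). Of 20 genes tested 12 were lower and none higher, beside 18.1% of all genes tested lower and 12.8% higher. Without centring 9 were lower and 2 higher, beside 9.62% and 24.1%. Ndc80, Aurkb and Anln were under the minimum. Against the E11.5 KO the difference was −0.61 (−0.69 to −0.53), with 8 of 17 genes tested lower, beside 19.4%.

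The G2/M genes divided by gene in this sample. Ccnb1 was lowest, at 12.2 CPM beside 27.8 in the control, 24.9 in the E11.5 KO and 36.7 in the XX control (−1.36, −1.82 to −0.94). Birc5, the survivin subunit of the chromosomal passenger complex, was at 28.5 CPM beside 60.4, 59.7 and 60.02 (−1.26), and Ube2c at 33.6 CPM beside 66.7, 65.7 and 77.6 (−1.17). Cenpa, the centromeric histone, was at 24.8 CPM beside 44.9, 42.0 and 41.6 (−1.04). For each of these genes the E11.75 value lay below all 3 other samples. By contrast Mki67, Top2a and Cenpf were at 33.1, 68.0 and 37.3 CPM, with differences from the control of 0.07, −0.16 and −0.07, and Kif11 was the highest of the list (0.36, −0.19 to 0.89). In the S phase list 1 gene was higher and 1 lower of 22 tested, fewer than the 12.8% and 18.1% of all genes. These were Dtl and Tyms. Dtl, which marks proteins for destruction at PCNA on chromatin, was at 44.9 CPM beside 25.6, 29.9 and 26.2 (0.62), and Tyms, which makes thymidylate, at 68.6 CPM beside 96.6, 94.0 and 82.3 (−0.68). Mcm2 and Mcm3 differed from the control by 0.01 and 0.14.

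The sizes of these differences followed coding length. Over all 9505 genes tested with a known coding length, Spearman's rho between coding length and the E11.75 ratio was 0.50, against −0.07 in the E11.5 KO and −0.28 in the XX control. The shortest decile of genes lay at a median of −0.52 and the longest at 0.30. Over the 20 G2/M genes tested rho was 0.67. The 10 with a coding length under 1911 bases had a median of −1.07, and the 10 with 1911 bases or more a median of −0.12. Birc5, Cenpa and Ube2c have coding lengths of 420, 402 and 537 bases, and Mki67, Cenpf and Top2a of 9531, 8991 and 4584. The longest transcripts of Birc5, Cenpa and Ube2c have 3334, 1466 and 2191 bases. Over all genes, the deciles of transcript length that hold Birc5 and Ube2c lay at medians of 0.10 and −0.22. Bub1, a spindle checkpoint kinase of 3177 bases chosen after its value was seen, was an exception at −1.08. Against the median of genes in the same decile of coding length, an alternative chosen after seeing the data, the median G2/M gene lay at −0.59 and 11 of 20 were lower, beside 9.51% of all genes tested by the same centring. Gm42418, a non-coding gene overlapping ribosomal RNA, moved with the sample as well, at 10854 CPM in these cells beside 4372, 3887 and 5295 in the others. The median percent of mitochondrial UMIs in these cells was 6.16% beside 4.40% in the XY control, 4.67% in the E11.5 KO and 3.38% in the XX control, and it was highest in the E11.75 KO in all 13 types. The part of the length pattern, of Gm42418 and of the mitochondrial percent in the result was not tested.

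**Figure D5:**
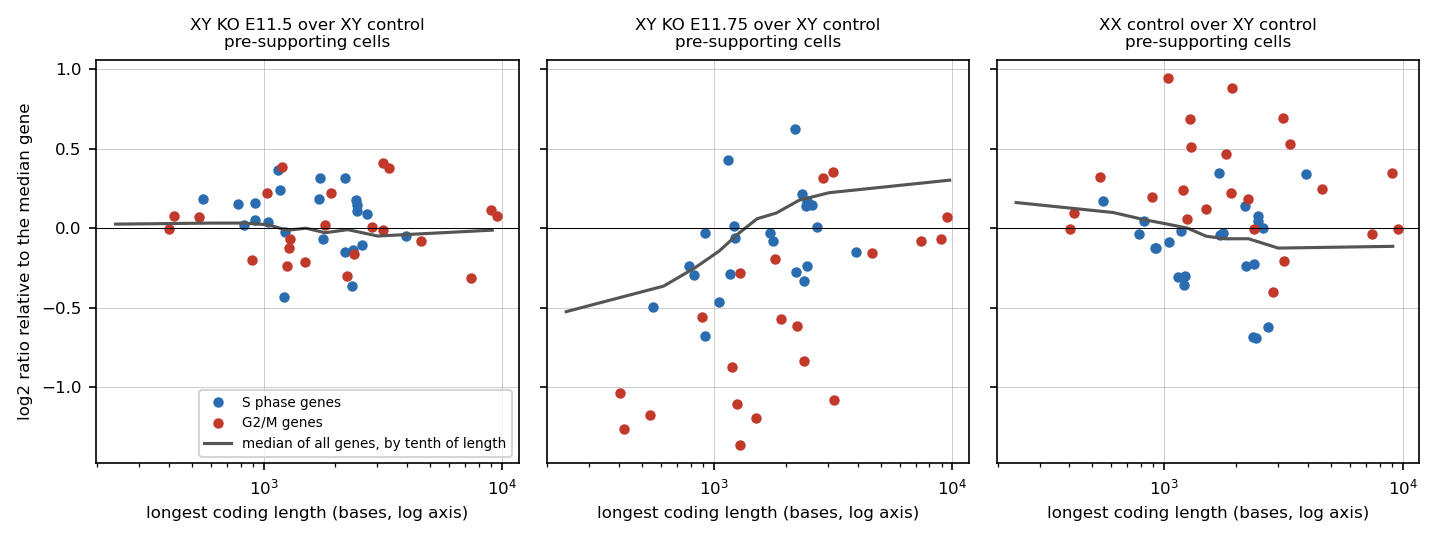
Log2 ratio relative to the median gene in pre-supporting cells against the longest coding length of the gene (bases, log axis), for S phase genes (blue), G2/M genes (red) and the median of all genes tested in each decile of length (grey line). In the E11.75 KO the grey line rises from −0.52 to 0.30 and most short G2/M genes lie below it, which is not seen in the other 2 comparisons.

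In the other supporting or interstitial types at E11.75 the G2/M genes were also lower, at −0.70 (−0.88 to −0.52) in supporting-like cells with all 8 genes tested below the median gene, −0.62 (−0.75 to −0.48) in Sertoli cells and −0.58 (−0.67 to −0.49) in interstitial progenitors. After thinning, which left out 33 of 174 supporting-like cells of the E11.75 KO and 268 of 785 of the XY control, the mean was 1.38 G2/M UMIs a cell against 1.76, and 34.04% of cells against 20.3% held none. The share with at least 5 was 6.38% (9 of 141, 2.96% to 11.77%) against 4.45% (23 of 517, 2.84% to 6.60%), with intervals that overlap, and 6.90% against 7.52% without thinning. In the types with high levels the differences ran from −0.43 (−0.47 to −0.40) in mesonephric epithelium, over −0.21 in mesonephric mesenchyme and in endothelial cells, −0.15 in sympathoadrenal cells, −0.12 in coelomic epithelium and −0.08 in germ cells, to 0.18 in mesonephric tubules. Without centring on the median gene the direction turned in coelomic epithelium (0.02) and germ cells (0.10), while mesonephric mesenchyme, endothelial and sympathoadrenal cells lay at −0.06, −0.05 and −0.02, mesonephric epithelium at −0.30 and mesonephric tubules at 0.32. The shorter G2/M genes had the lower median in every type measured at E11.75, among them interstitial progenitors (−0.94 against −0.27), mesonephric epithelium (−0.68 against −0.19) and mesonephric mesenchyme (−0.39 against −0.003). The S phase genes were lower in interstitial progenitors, at a difference of −0.62 (−0.68 to −0.56), at 1187 against 1671 CPM, with all 20 genes tested below the median gene and 12 past the limit, beside 16.3% of genes lower. The lowest was Ccne1, at 13.4 CPM beside 34.5 in the control, 22.6 in the E11.5 KO and 35.5 in the XX control (−1.48).

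The XX control differs from the XY control in sex, breeding, cell filters and depth at once, which cannot be told apart. In its pre-supporting cells the G2/M genes were at 642 against 589 CPM (0.23, 0.17 to 0.29), with 6 of 23 genes higher and none lower, beside 4.60% higher and 7.46% lower. Without centring 4 were higher and 1 lower, beside 2.70% and 11.9%. Aurkb was highest, at 13.9 against 7.74 CPM (0.94, 0.47 to 1.44), and Kif23, a motor of cell division's last step, lowest, at 6.05 against 8.62 CPM (−0.40). This difference depended on whether deep cells were kept, and depth went with these genes themselves. In the XX control as a whole the median cell with at least 5 UMIs of each list after thinning held 19576 UMIs before it, and the median cell with neither 13591. The authors had applied these limits on depth to the shallower XY samples, and in the XX control leaving out deep cells leaves out cells rich in G2/M transcripts. The 42 of 352 pre-supporting cells with at least 30000 UMIs or 7000 genes held 1049 CPM of the G2/M genes, and the 310 under both limits 520 CPM. Without the 42 the difference was −0.05 (−0.12 to 0.02), with no gene higher and 1 lower of 21 tested, beside 4.97% higher and 8.80% lower. The XX runs gave 0.04 and 0.38. With cells thinned to 3000 UMIs it was 0.06.

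The S phase genes were lower in XX pre-supporting cells, at 1083 against 1281 CPM (−0.14, −0.18 to −0.09), a value that ran from −0.24 without centring to −0.04 as the median of the members. Of 23 genes tested 3, Mcm3, Uhrf1 and Mcm2, were lower by the limit and none higher, beside 7.46% and 4.60% of all genes. Mcm3 was at 52.5 CPM beside 91.3 in the XY control, 96.9 in the E11.5 KO and 114.6 in the E11.75 KO (−0.69, −0.88 to −0.51), and Mcm2 at 52.5 CPM beside 87.0, 86.7 and 99.6 (−0.62). The XX value was below all 3 XY samples for both. Cdc45 was highest (0.35, −0.19 to 0.89). Without the deep cells 5 of 22 S phase genes were lower, beside 8.80% of all genes tested in those cells. Mcm2 was also the lowest S phase gene of the XX comparison in 8 other types, among them germ cells (−0.49) and endothelial cells (−0.70). In mesonephric tubules both lists were higher in the XX control, with 17 of 23 G2/M genes and 9 of 23 S phase genes past the limit, beside 6.75% of genes higher. There the G2/M genes were at 2627 against 1845 CPM (0.68, 0.65 to 0.71), and without deep cells 0.64. The S phase genes went from 0.40 to 0.52 without deep cells, with 17 of 23 higher beside 8.55% of all genes, as were 17 of 23 G2/M genes. Without centring, and with all cells, the differences were 0.23 for S phase and 0.51 for G2/M. The XX cells over the limits were also richer in G2/M transcripts than those under them in other types, endothelial cells excepted (2398 against 2493 CPM). The levels were 5345 against 3163 CPM in coelomic epithelium (35 cells over the limits), 2847 against 626 CPM in interstitial progenitors (only 5 cells) and 4083 against 1938 CPM in sympathoadrenal cells (20 cells).

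Cell cycle genes outside the lists were read in pre-supporting cells as well. Of 55 other mitosis factors, 33 were tested at E11.75 against the XY control, and 18 were lower and none higher, beside 18.1% of all genes tested lower and 12.8% higher, from Pbk, a mitotic kinase, at −1.38 to Cdc25a, a phosphatase that activates cyclin-dependent kinases, at 0.48. Of 40 other replication factors 37 were tested, with 9 lower and 1 higher beside the same shares, from Orc1, a subunit of the origin recognition complex, at −1.21 to Pola1, a polymerase subunit, at 0.59. At E11.5 the KO had 3 lower of 37 other mitosis factors and 1 higher and 2 lower of 37 other replication factors, beside 5.90% of all genes tested higher and 7.54% lower, so these counts were near the background. Orc1 was the lowest (−1.26). Its level in pre-supporting cells was 60.5 CPM in the XY control, 23.7 in the E11.5 KO, 29.6 in the E11.75 KO and 72.6 in the XX control, so both KO samples lay below both controls. In coelomic epithelium it was 22.3, 15.1, 22.2 and 24.2 CPM, lower than in pre-supporting cells of the same sample throughout. Of 24 E2F, pocket protein, MuvB and FOXM1 regulators 17 were tested at E11.5, with 2 lower beside the same 7.54%, and E2f1, an activating E2F, was the highest at 13.8 against 10.5 CPM (0.48). Mybl1, a MYB family factor, was the lowest at 3.15 against 10.9 CPM (−1.67), and it was as low in the XX control, at 3.10 CPM.

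The 6 microRNAs whose mature sequences are printed below are those of the deleted cluster, shown so that their seeds can be read beside the sites in cell cycle genes. The study names a paralog of this cluster. MicroRNAs of other loci that share a sequence or seed with these were not examined, so absence of the seeds in the KO was not checked. All lie on chromosome 14 between 115043684 and 115044496, plus strand, and the seed, bases 2 to 8, is in capitals (RefSeq, GRCm38.p6). They share 4 seeds, one for miR-17 and miR-20a and one for miR-19a and miR-19b.
mmu-miR-17-5p: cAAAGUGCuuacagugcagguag
mmu-miR-20a-5p: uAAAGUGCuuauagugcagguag
mmu-miR-18a-5p: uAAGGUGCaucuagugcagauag
mmu-miR-19a-3p: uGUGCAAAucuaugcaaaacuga
mmu-miR-19b-3p: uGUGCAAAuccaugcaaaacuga
mmu-miR-92a-3p: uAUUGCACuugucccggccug
A site for any seed, a match to bases 2 to 8 or to bases 2 to 7 followed by A, was in the longest annotated 3′ UTR of 47.8% of the S phase genes (11 of 23), 30.4% of the G2/M genes (7 of 23) and 43.1% of all 17272 genes with a 3′ UTR. Sites of 8 letters, the seed match followed by A, were in 5 genes, and the match is in capitals.
Mcm3, seed of miR-17 and miR-20a, base 284 of the 3′ UTR: acccccagGCACTTTAgtccagga
Dtl, seed of miR-17 and miR-20a, base 861: cataaagaGCACTTTAtctcgaca
Kif23, seed of miR-17 and miR-20a, base 222: aaaaaaatGCACTTTAgacatatt
Rrm2, seed of miR-19a and miR-19b, base 412: attggcacTTTGCACAcacacaca
Nusap1, seed of miR-18a, base 2172: cctcaggaGCACCTTAggcaataa
In pre-supporting cells of the E11.5 KO the 18 genes with any site had a median difference from the XY control of −0.02 (−0.43 to 0.38 from lowest to highest) and the 27 without one 0.05 (−0.24 to 0.41). Of the genes printed, Mcm3 was at 0.18, Dtl at 0.31, Rrm2 at 0.24, Kif23 at 0.01 and Nusap1, a spindle microtubule protein, at −0.12, all within the limit of 0.5. In the XX control, where the cluster is intact, the medians were −0.01 with and 0.05 without a site. In the E11.75 KO they were −0.15 with and −0.28 without, and over all genes tested with a 3′ UTR 0.13 with and −0.13 without. Set against the E11.5 KO, which also lacks the cluster, the E11.75 KO gave 0.14 with and −0.16 without over all such genes. The part of the gene length pattern of the E11.75 KO in these values was not tested. Over all such genes the E11.5 KO gave −0.02 with and 0.01 without, and the XX control −0.05 and 0.03.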

How the data were processed

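Single-cell RNA-seq was done on 4 pooled samples, 1 per group. As the labels and methods state, the authors mapped reads with Cell Ranger 6.1.1 to mm10 with the second Sry exon added, filtered cells on UMIs, genes, mitochondrial and globin reads (XY samples) or by removing poor clusters (XX), removed doublets with DoubletFinder, and annotated cell types in Seurat after integration. The mitochondrial and globin cutoffs were not the same in all XY samples. A cluster with cells of the XY control only was also taken out by hand. The deposited values are raw counts of UMIs per gene and cell, whole throughout. The percent of mitochondrial and beta globin UMIs of each cell, computed by the authors and deposited beside the counts, was used only to describe types. All samples but the E11.75 KO were made of 2 runs, added here. No further cells were removed, and doublets were not called again.

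UMIs were summed by type and sample and given as CPM with exact Poisson intervals. Ratios used a prior count of 0.5, a minimum of 100 UMIs over both sides, centring on the median gene and exact binomial intervals conditional on the sum. A fold of 0.5 on the log2 scale (1.41-fold) counted a gene as higher or lower. Shares used cells thinned to 3000 UMIs with a limit of 5 UMIs and Clopper-Pearson intervals. The unit of replication, the embryo pool, had 1 sample per group, so no test was run. PCR errors and the spread between embryos are outside all these intervals, and the sampling of cells is covered only by those of shares.

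The members and lists were chosen with earlier results of these data known. Named genes were the 5 members of each list with the most UMIs, with Mki67, Top2a, Ccnb1, Pcna, Mcm2, Ccne1 and Ccne2, and the highest and lowest of each list in each comparison of pre-supporting cells. Others were named after their values were seen. Coding lengths and 3′ UTRs came from GENCODE vM21, and promoters and microRNAs from RefSeq, both on the build of the files. Calculations were tested on simulated data and used Python 3.11.15, NumPy 2.4.6, SciPy 1.17.1, pandas 2.3.3, matplotlib 3.10.9 and, for TMM factors, edgeR 4.0.16 in R 4.3.3. Alternatives were other centrings, minimums, folds, prior counts, depths and limits, cells weighted equally, single runs, Sertoli cells added, and XX cells under the limits of the XY samples.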

Additional observations from a re-analysis of the deposited data

Results flagged for a closer look

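For each comparison and each list, the cell types with the highest and the lowest relative log2 difference had intervals on opposite sides of 0, and none of these differences between types was tested, since each group was 1 sample. In the E11.5 KO over the XY control, the S phase genes differed by 0.45 between endothelial cells (0.12, 0.08 to 0.17) and interstitial progenitors (−0.32, −0.37 to −0.27). In the same comparison the G2/M genes differed by 0.68 between endothelial cells (0.44) and immune cells (−0.24). The immune value came from 1 of the runs, since the E11.5 KO runs held 3407 CPM (34 cells) and 2299 CPM (39 cells) beside 3571 and 3122 CPM in the control runs.

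In the E11.75 KO over the XY control, the S phase genes differed by 0.80 between mesonephric tubules (0.18) and interstitial progenitors (−0.62), and the G2/M genes by 0.87 between mesonephric tubules (0.18) and supporting-like cells (−0.70). In the XX control over the XY control, the S phase genes differed by 0.56 between mesonephric tubules (0.40) and endothelial cells (−0.16), and the G2/M genes by 0.76 between mesonephric tubules (0.68) and germ cells (−0.08). Without the deep XX cells the endothelial S phase value was 0.03 (−0.05 to 0.12), and its sign was not kept. Of the 84 XX germ cells 64 were deep, and the 20 left were too few for a value. Among the types with enough cells under the limits, the lowest G2/M value was then −0.45 in sympathoadrenal cells. There the 20 deep cells left out held 4083 CPM of the G2/M genes and the 67 kept 1938 CPM. Mesonephric tubules were the highest type in 4 of these 6 results, and all 6 share the XY control sample.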

How the results depend on the processing

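No paired analysis was possible because each group was 1 sample. Of 200 alternatives to the main values, 123 stayed within the counting interval of the value or within 1.5 times the count and 77 moved. Of 243 alternatives for the 16 named genes and for the highest and lowest gene of each list in each comparison, 13 moved. None reversed a difference of 0.5 or more, a size that among the summed lists only the G2/M difference at E11.75 had. The G2/M difference at E11.75 kept its sign in 13 of 13 settings (−0.66 to −0.41), that of the XX control in 15 of 16 (−0.05 to 0.38) and that of the E11.5 KO in 7 of 15. Why values moved was not tested beyond what each setting itself changes. Centring by decile of coding or transcript length was chosen after seeing the data. Small counts limit single genes most, and with 1 pool a group the spread between embryos is unknown.

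Counts of genes past a limit are given by direction, beside the share of all genes tested under the same setting. Without centring, the S phase and G2/M sums lay at −0.017 and −0.086 in the E11.5 KO, with 1 S phase gene of 23 lower beside 10.5%, at 0.079 and −0.41 in the E11.75 KO, and at −0.24 and 0.12 in the XX control. A limit of 0.3 passed 5 of 23 S phase genes in the E11.5 KO (3 higher, 2 lower) and 4 of 22 G2/M genes (3 higher, 1 lower), beside 14.7% higher and 16.1% lower. In the E11.75 KO it passed 6 of 22 S phase genes (2 higher, 4 lower), beside 25.2% and 28.9%. For the XX control the counts were 7 of 23 S phase genes (2 higher, 5 lower) and 10 of 23 G2/M genes (9 higher, 1 lower), beside 14.5% and 17.8%. A limit of 1 passed 0 of 22 S phase genes in the E11.75 KO and 7 of 20 G2/M genes, all lower, beside 2.002% higher and 2.82% lower, and 0 and 0 of 23 in the XX control, beside 0.664% and 1.16%. With Sertoli cells added, the G2/M sum was −0.083 in the E11.5 KO, with 2 of 23 genes past the limit (1 higher, 1 lower), beside 7.32% and 10.8%, and 0.14 in the XX control. In the E11.75 KO 5 of 23 S phase genes were then lower, beside 18.4%. Centring by decile of 3′ UTR length gave S phase medians of −0.058 in the E11.75 KO and −0.083 in the XX control. Centring by transcript length gave −0.025 in the E11.75 KO, centring by coding length −0.090 in the XX control, and the median of the members in place of their sum −0.043 in the XX control. A minimum of 500 UMIs gave 0.00051 for S phase and −0.49 for G2/M in the E11.75 KO, where only 3 G2/M genes could be tested and 2 were lower, beside 17.0%. With the same minimum 0 of 6 G2/M genes passed in the XX control, beside 2.41% higher and 5.38% lower. A minimum of 50 gave 4 of 23 S phase genes in the E11.75 KO (1 higher, 3 lower), beside 13.9% and 18.6%. Cells of the XX control under the XY limits gave −0.20 for S phase (5 of 22 lower) and −0.049 for G2/M (1 of 21 lower), beside 8.80%. The XX G2/M sum was 0.0050 with cells weighted equally, 0.058 with cells thinned to 3000 UMIs, 0.042 in run 1 and 0.38 in run 2.

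Shares of pre-supporting cells follow in the order XY control, the E11.5 KO, the E11.75 KO and XX control. S phase shares were 12.3%, 12.1%, 15.4% and 7.10% at 2000 UMIs, 66.7%, 68.4%, 70.4% and 48.2% at 5000, 59.0%, 68.1%, 62.2% and 98.0% without thinning, 67.5%, 65.3%, 69.8% and 59.3% with a limit of 3 UMIs, and 3.88%, 1.94%, 2.53% and 3.15% with a limit of 10. G2/M shares were 2.56%, 1.96%, 1.43% and 5.40% at 2000 UMIs, 12.3%, 11.52% and 5.71% in the XY samples at 5000, 14.9%, 17.7%, 8.23% and 57.96% without thinning, 23.6%, 21.4%, 16.4% and 17.5% with a limit of 3, and 0.749%, 1.17%, 0.481% and 2.87% with a limit of 10.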

Other observations

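Single G2/M genes of the XX control also changed without its deep pre-supporting cells, a selection that takes out the cells richest in G2/M transcripts (1049 CPM against 520 CPM in the cells kept). Mki67 moved from −0.01 to −0.48 relative to the XY control, Top2a from 0.25 to −0.18 and Cenpf from 0.35 to 0.06, while Rrm2 of the S phase list moved from −0.02 to −0.38. With Sertoli cells added to pre-supporting cells, Rrm1 of the S phase list was at −0.43 in the E11.5 KO, −0.58 in the E11.75 KO and −0.52 in the XX control, all against an XY control with 752 Sertoli cells. In sympathoadrenal cells of the E11.5 KO the G2/M genes were at 3946 CPM in 1 run and 1860 CPM in the other, a spread of 1.09 on the log2 scale, the widest between runs of any type measured.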
